A study of Mus musculus with 22 samples.

Results

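The genes described here are 9 mouse genes whose products detect or edit double-stranded RNA: *Ifih1*, *Ddx58*, *Dhx58*, *Mavs*, *Eif2ak2*, *Adar*, *Adarb1*, *Zbp1* and *Tlr3*. They were taken by symbol, matched to the gene identifiers of the deposited GENCODE table, and are 9 of its 52636 genes. All 9 had a row in the table, and the rule uses no measured value. RNA was sequenced from pools of fully grown germinal vesicle (GV) oocytes of C57BL/6 females in 22 libraries, 11 in a single-end run and 11 in a paired-end run.

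The single-end run held wild type oocytes (Dicer-WT/WT, n = 3), 1 heterozygote (Dicer-{delta}MT/WT, written Dicer dMT/WT here), Dicer-{delta}MT/{delta}MT oocytes (written Dicer dMT/dMT, n = 4) and Dicer-SOM/SOM oocytes (n = 3). The labels give no ages for this run. The delta MT allele lacks the main retrotransposon-derived promoter that drives the short, highly active Dicer isoform of the oocyte. The paper reports that another retrotransposon insertion in the same intron can still drive a truncated Dicer in Dicer dMT/dMT oocytes. In the SOM allele a segment of HA-tagged cDNA replaces the region that holds the oocyte promoter, so that full-length Dicer is made, and the line came from 1 embryonic stem cell clone. The paired-end run combined this allele with Mili-DAH, which encodes a catalytically dead form of the piRNA pathway protein MILI. Its 4 heterozygous controls, of genotype Mili-DAH/WT with Dicer-SOM/WT, therefore carried 1 mutant copy of both genes and came from females of 36, 38, 10 and 17 weeks. It also held 1 piRNA mutant of 16 weeks (genotype Mili-DAH/DAH with Dicer-SOM/WT), 2 RNAi mutants of 17 and 13 weeks (Mili-DAH/WT with Dicer-SOM/SOM) and 4 double mutants of 40, 35, 11 and 11 weeks (Mili-DAH/DAH with Dicer-SOM/SOM). Replicates are numbered in the order in which these ages are listed, so that replicates 1 and 2 of the controls and of the double mutants are the older females. No label says which samples came from separate animals, so p-values measure the spread between these samples, which may be partly technical.

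Levels are CPM (read counts scaled to a common library size) after TMM scaling within a run, and the library totals were 6468380 to 90713013 counts. The library labelled Dicer SOM/SOM replicate 3 was the shallowest and had the highest share of the rRNA-derived *Gm42418* (17275 CPM). The *Ddx58* and *Tlr3* calls in Dicer SOM/SOM against wild type are therefore also given without it. Fold changes of other genes in this genotype are given only with it. In the paired-end run *Gm42418* stood at 294 to 557 CPM in 5 libraries and at 4083 to 5500 CPM in 6, and both RNAi mutants were among the 6. *Dicer1* was at 996 to 1050 CPM in wild type, 427 to 533 in Dicer dMT/dMT, 41.6 to 54.4 in Dicer SOM/SOM, 502 to 763 in heterozygous controls, 53.8 and 62.1 in RNAi mutants and 53.1 to 60.8 in double mutants, lower in the mutants as labelled. The 12 oocyte markers summed to 11790 to 15582 CPM in all 22 libraries, the 14 granulosa and cumulus markers to 88.8 to 169 CPM, the 9 lymphocyte markers to 39.3 to 87.1 CPM and the 8 endothelial and stromal markers to 50.9 to 84.5 CPM. The oocyte markers *Kit* and *Mos* and the endothelial marker *Kdr* were called lower in all 4 comparisons of RNAi-deficient oocytes with controls, the comparisons in which *Ddx58* fell, and their part in that result was not tested. The lymphocyte sum was 39.3 to 48.6 CPM in Dicer SOM/SOM and 69.8 to 75.2 in wild type, with *Ms4a1* and *Cd4* called lower. Other calls against controls were *Fshr*, *Cyp19a1*, *Star* and *Pdgfra* in Dicer SOM/SOM and *Nr5a2* and *Ptprc* in double mutants.

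Double-stranded RNA is sensed in the cytosol by the helicases RIG-I (*Ddx58*) and MDA5 (*Ifih1*), which signal through MAVS on mitochondria to the interferon genes, and in endosomes by TLR3. PKR (*Eif2ak2*) stops translation when it binds long duplexes, the ADAR enzymes turn adenosine into inosine within duplexes, and ZBP1 binds left-handed duplexes and can start necroptosis. Mouse oocytes are unusual among mammalian cells in that Dicer cuts long double-stranded RNA into small interfering RNAs, and they are known to tolerate injected duplexes without an interferon response.

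Promoter sequence is shown for the members that respond to interferon in other cells and for those whose oocyte levels fell or lay lower in the mutants. RefSeq promoter windows of GRCm38.p6, each 300 bases long, were matched for 7 members, and *Zbp1* and *Dhx58* are named only. The core of the interferon-stimulated response element was searched as GAAA, any 2 bases and GAAA, or TTTC, any 2 bases and TTTC, on both strands. It was found in 3 of the 7 members and in 1131 of all 32851 windows (3.44%). The stretches below hold it in capitals, read on the minus strand, at chr2:62646206-62646235, chr4:40239804-40239833 and chr17:78882535-78882564.
Ifih1: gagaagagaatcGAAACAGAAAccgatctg
Ddx58: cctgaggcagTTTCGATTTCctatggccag
Eif2ak2: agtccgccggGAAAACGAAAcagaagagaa
In these 3 genes the core began 33, 3 and 19 bases after the RefSeq start site. The *Ifih1* core lies before the start of the counted gene model, at chr2:62646211. The windows of *Tlr3*, *Adarb1*, *Mavs* and *Adar* did not hold these letters. The *Tlr3* window ends at chr8:45410630, close to the start of its counted gene model at chr8:45410619. Bases farther before that start were not searched.

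The 65 bases from 69 to 5 before the RefSeq start site are shown for *Ddx58*, *Tlr3* and *Adarb1*, with each GAAA or TTTC in capitals. For these members every Dicer dMT/dMT, Dicer SOM/SOM and double mutant library lay below every control of its run. Here and below, the share of all genes with libraries parted in this way was not counted. The parting is therefore not shown to be particular to these members. The stretches lie on the minus strand at chr4:40239830-40239894, chr8:45410385-45410449 and chr10:77418278-77418342. The *Tlr3* stretch is upstream of the RefSeq start only. It lies inside the counted gene model, which starts at chr8:45410619.
Ddx58: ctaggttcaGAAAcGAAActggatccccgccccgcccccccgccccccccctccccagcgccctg
Tlr3: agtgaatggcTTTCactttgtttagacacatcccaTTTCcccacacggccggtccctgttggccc
Adarb1: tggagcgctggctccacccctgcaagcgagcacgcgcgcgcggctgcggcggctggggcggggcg
*Ddx58* and *Tlr3* each held 2 such repeats in this stretch and *Adarb1* held 0. Among all stretches of this length before RefSeq starts, 40.2% held at least 1 and 12.7% at least 2. These matches describe letters and were not set against binding data.

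**Figure D1:**
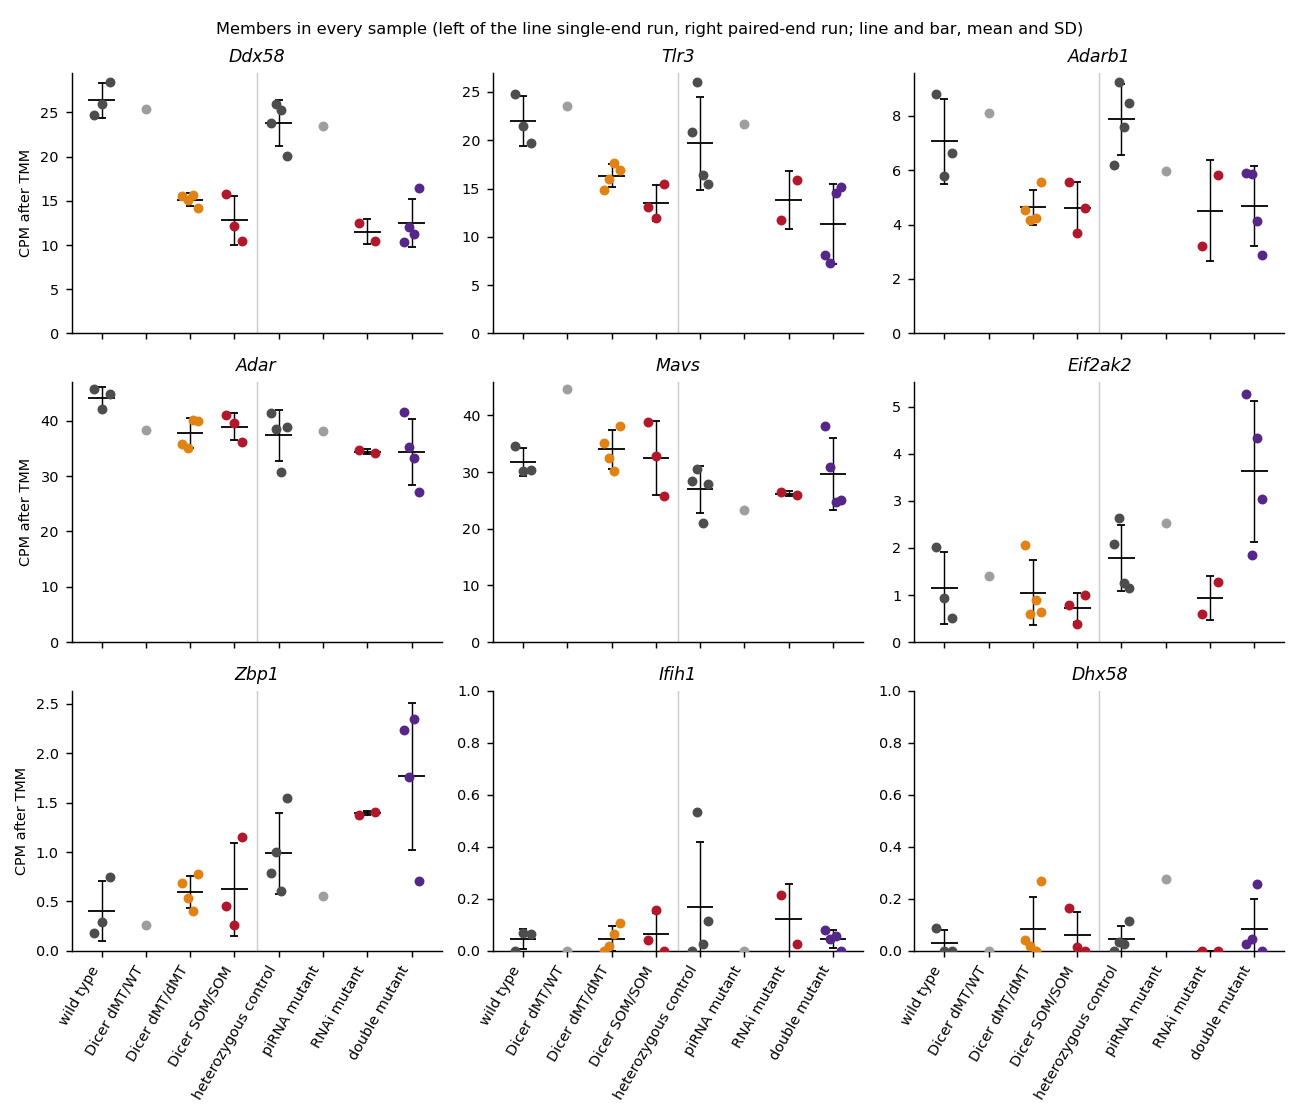
Level of each member (CPM after TMM) in every library, by genotype, with the mean and SD of each group and the runs parted by a grey line. *Ddx58* stood at 24.7 to 28.5 CPM in wild type and at 10.4 to 15.8 in Dicer SOM/SOM, while the groups overlapped for *Mavs* and *Ifih1* and *Dhx58* stayed under 1 CPM.

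*Ddx58*, which encodes the cytosolic sensor RIG-I, fell in all 4 comparisons of RNAi-deficient oocytes with controls. *Ddx58* (chr4:40204849-40239828, minus strand, GRCm38) stood at 24.7, 25.9 and 28.5 CPM in wild type, at 15.6, 15.1, 15.7 and 14.2 in Dicer dMT/dMT, and at 15.8, 12.2 and 10.4 in Dicer SOM/SOM. Every mutant library lay below every wild type library. The level in Dicer dMT/dMT was 57.4% of wild type, a log2 fold change of -0.80 ± 0.13 (SE, edgeR quasi-likelihood test with Benjamini-Hochberg adjustment over all genes tested, adjusted p = 0.00182). In Dicer SOM/SOM it was 48.5%, a log2 fold change of -1.01 ± 0.14 (adjusted p = 0.000381). Without the shallow SOM/SOM replicate 3 the log2 fold change was -0.91 (adjusted p = 0.000644). Both comparisons use the same 3 wild type libraries, and the call held at an adjusted p under 0.05 in 16 of 16 and 15 of 15 alternative fits. With a minimum change of 1 log2 unit added, it held in Dicer SOM/SOM but not in Dicer dMT/dMT. In a pool of cells, fewer cells of a type and less RNA per cell cannot be told apart.

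In the paired-end run *Ddx58* was at 23.8, 25.9, 25.3 and 20.1 CPM in heterozygous controls, at 12.5 and 10.5 in RNAi mutants and at 10.3, 12.0, 11.2 and 16.4 in double mutants. No RNAi or double mutant library reached the lowest control. The level fell to 48.3% in RNAi mutants (log2 fold change -1.05 ± 0.22, edgeR adjusted p = 0.00624) and to 52.4% in double mutants (-0.93 ± 0.17, adjusted p = 0.00145). These comparisons share their 4 controls. The *Ddx58* call in RNAi mutants was lost without RNAi mutant replicate 2 (-0.92, adjusted p = 0.105) and with younger animals only (-0.99, adjusted p = 0.0545), and the call in double mutants was lost with younger animals only (-0.72, adjusted p = 0.125). With a minimum change of 1 log2 unit the call held in RNAi mutants and was lost in double mutants. Over all alternatives the adjusted p of *Ddx58* ranged from 3.43e-05 to 0.105 in RNAi mutants and from 2e-06 to 0.125 in double mutants. With a term for the libraries over 1000 CPM of *Gm42418*, the log2 fold changes were -0.89 (adjusted p = 0.00891) and -0.94 (adjusted p = 0.00038).

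In the piRNA mutant, which keeps 1 wild type copy of *Dicer1*, *Ddx58* was at 23.5 CPM, inside the control range of 20.1 to 25.9. The Dicer dMT/WT heterozygote was at 25.4 CPM, inside the wild type range. Each is 1 library, so neither was tested. Double mutants against RNAi mutants differed by a log2 fold change of 0.12 (95% interval -0.34 to 0.57), and Dicer SOM/SOM against Dicer dMT/dMT by -0.21 (-0.5 to 0.08), with edgeR adjusted p = 1.0 and 0.388.

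The remaining RIG-I-like receptors were near the limit of detection. *Ifih1* (chr2:62595798-62646211, minus strand), the sensor of long duplexes, had 0 to 16 counts per library and at most 0.533 CPM. *Dhx58* (chr11:100694884-100704271, minus strand), the LGP2 helicase that tunes the other two sensors, had 0 to 23.25 counts and at most 0.278 CPM. A count of 3 corresponds to 0.0331 to 0.464 CPM at these depths, and no difference of these genes was detectable. Both failed the filter on low counts in both runs. The exons of *Dhx58* share 141 bases with *Dhx58os* on the opposite strand, and the reads were counted without strand.

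*Mavs*, the shared adaptor of the cytosolic sensors (chr2:131234067-131248025, plus strand), did not pass the test in any comparison. It was at 34.6, 30.2 and 30.4 CPM in wild type, 35.2, 32.4, 30.2 and 38.2 in Dicer dMT/dMT, and 38.8, 32.9 and 25.7 in Dicer SOM/SOM. It was at 28.4, 30.6, 21.0 and 27.9 CPM in heterozygous controls, 26.5 and 25.9 in RNAi mutants, and 38.2, 30.8, 24.7 and 25.1 in double mutants. The groups overlapped throughout. The log2 fold changes were 0.1 (95% interval -0.2 to 0.4), 0.06 (-0.27 to 0.38), -0.04 (-0.5 to 0.41) and 0.14 (-0.23 to 0.51) in the same order, so the log2 fold change of *Ddx58* in the same comparison lay outside each interval. The Dicer dMT/WT library was the highest of all for *Mavs*, at 44.7 CPM.

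The endosomal receptor *Tlr3* (chr8:45395665-45410619, minus strand) fell in 3 of the 4 comparisons with controls. It stood at 24.8, 21.5 and 19.7 CPM in wild type, at 14.8, 16.0, 17.6 and 16.9 in Dicer dMT/dMT and at 13.1, 11.9 and 15.5 in Dicer SOM/SOM. The mutant libraries were all below the lowest wild type library. The log2 fold change was -0.43 ± 0.12 in Dicer dMT/dMT (edgeR adjusted p = 0.0329) and -0.72 ± 0.13 in Dicer SOM/SOM (adjusted p = 0.00224, and -0.81 with adjusted p = 0.00132 without replicate 3). The *Tlr3* call in Dicer dMT/dMT held in 7 of 16 alternatives, was lost without any 1 of the Dicer dMT/dMT libraries or of wild type replicates 1 and 2, and its adjusted p ranged from 0.0057 to 0.143. Dicer SOM/SOM against Dicer dMT/dMT gave -0.29 (95% interval -0.57 to -0.01, adjusted p = 0.192).

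*Tlr3* was at 20.9, 26, 16.4 and 15.5 CPM in heterozygous controls, at 11.7 and 15.9 in RNAi mutants and at 8.17, 7.29, 14.5 and 15.2 in double mutants. All double mutants lay below the lowest control, 1 of them at 15.2 against 15.5 CPM, and the RNAi mutants overlapped the controls. The double mutants fell by a log2 fold change of -0.81 ± 0.26 (edgeR adjusted p = 0.0372), and the RNAi mutants gave -0.51 ± 0.32 (adjusted p = 0.373). Double mutants against RNAi mutants gave -0.30 (95% interval -0.97 to 0.37). The *Tlr3* call in double mutants was lost without double mutant replicate 1 or 2 (adjusted p = 0.0994 and 0.0991) and without control replicate 1 or 2 (0.0776 and 0.112), and it held in 16 of 21 alternatives.

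The 4 libraries whose loss ended this call were those of the older females. In animals of 35 weeks and over *Tlr3* was at 20.9 and 26 CPM in controls against 8.17 and 7.29 in double mutants, a log2 fold change of -1.59 (edgeR adjusted p = 0.00782, a split made after the values were seen). In animals of 10 to 17 weeks it was at 16.4 and 15.5 against 14.5 and 15.2, a log2 fold change of -0.1 (adjusted p = 0.851). The genotype effect differed between the age classes by -1.48 ± 0.32, with an unadjusted p of 0.000927 from edgeR and an adjusted p = 0.712 over 18641 genes, so the difference did not pass, and 1 gene did. Without adjustment 926 of those genes had a p under 0.05. In the same test *Ddx58* gave -0.41 ± 0.36 and *Adarb1* 0.81 ± 0.44, with adjusted p of 0.999 and 0.985. The exons of *Tlr3* overlap *Gm45542* on the opposite strand by 117 bases, 2.61% of its exon length, and *Gm45542* was at 0.181 to 1.62 CPM. Its part in the *Tlr3* values was not tested.

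**Figure D2:**
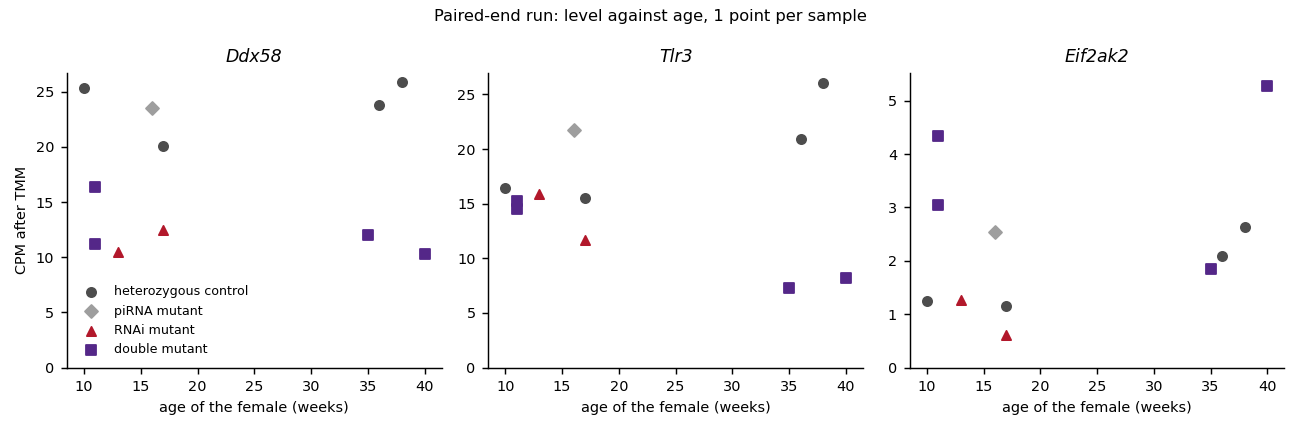
Levels of *Ddx58*, *Tlr3* and *Eif2ak2* (CPM after TMM) against the age of the female in weeks for the 11 paired-end libraries, with 1 point per library and a symbol per genotype. The *Tlr3* points of double mutants and controls are 7.29 and 8.17 against 20.9 and 26 CPM at 35 weeks and over, and 14.5 and 15.2 against 15.5 and 16.4 below that, while *Ddx58* is lower in double mutants at both ages.

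Of the editing enzymes, *Adarb1* (ADAR2, which recodes transcripts of ion channels, chr10:77290726-77418270, minus strand) lay lower in each RNAi-deficient genotype without passing the test. It was at 8.78, 5.78 and 6.61 CPM in wild type, 4.52, 4.17, 4.24 and 5.58 in Dicer dMT/dMT and 5.58, 3.68 and 4.60 in Dicer SOM/SOM. It was at 6.20, 9.23, 7.57 and 8.46 CPM in heterozygous controls, 3.20 and 5.83 in RNAi mutants, and 5.90, 5.84, 4.13 and 2.88 in double mutants. No mutant library reached the lowest control of its run, though the gaps were small. The log2 fold changes were -0.61 (95% interval -1.03 to -0.19), -0.61 (-1.08 to -0.14), -0.79 (-1.5 to -0.08) and -0.74 (-1.3 to -0.18), with edgeR adjusted p of 0.0524, 0.0537, 0.162 and 0.0601. The piRNA mutant, at 5.96 CPM, was also below the controls. *Adarb1* passed in 6 of 17, 5 of 16, 0 of 17 and 3 of 22 alternatives, among them DESeq2 for 3 of the comparisons (adjusted p of 0.0229, 0.0313 and 0.0264). The highest adjusted p over the alternatives were 0.218, 0.188, 0.666 and 0.464. Short repeats in *Adarb1* match 109 other genes over at most 111 bases.

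*Adar* (ADAR1, the broadly expressed deaminase that keeps cellular duplexes from MDA5, chr3:89715022-89753446, plus strand) was among the higher members and did not pass in any comparison. It was at 45.7, 42.1 and 44.8 CPM in wild type, at 35.8, 35.1, 40.2 and 39.9 in Dicer dMT/dMT and at 41.0, 39.6 and 36.2 in Dicer SOM/SOM. These mutant libraries lay below wild type by a small margin, and so did the Dicer dMT/WT library at 38.4 CPM. The log2 fold changes were -0.23 (95% interval -0.42 to -0.04, edgeR adjusted p = 0.101) and -0.17 (-0.38 to 0.04, adjusted p = 0.202). In the paired-end run controls were at 41.4, 38.6, 30.7 and 38.9 CPM, RNAi mutants at 34.8 and 34.1 and double mutants at 41.6, 35.2, 33.3 and 27.1, with overlapping groups and log2 fold changes of -0.12 and -0.13. The exons of *Adar* overlap *Chrnb2* on the opposite strand over 1365 bases (22.8%), and *Chrnb2* was at 1.94 to 4.42 CPM.

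PKR was the member with the highest level in double mutants relative to RNAi mutants. *Eif2ak2* (chr17:78852564-78882573, minus strand) was at 5.28, 1.85, 4.33 and 3.05 CPM in double mutants, 0.605 and 1.27 in RNAi mutants, 2.53 in the piRNA mutant and 2.09, 2.63, 1.25 and 1.16 in heterozygous controls. The double mutants all exceeded both RNAi mutants, while the lowest double mutant lay within the control range. Against controls the log2 fold change was 1.02 (95% interval 0.22 to 1.82, edgeR adjusted p = 0.0678), and against RNAi mutants it was 1.91 (0.83 to 3.0, adjusted p = 0.257). Neither passed with edgeR. DESeq2 called *Eif2ak2* higher in both (adjusted p = 0.0385 and 0.0166), and it passed in 5 of 22 and 2 of 17 alternatives, over which the adjusted p ranged from 0.0244 to 0.519 and from 0.0166 to 1.0. RNAi mutants against controls gave -0.89 (-1.95 to 0.17).

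In the single-end run *Eif2ak2* was at 2.01, 0.94 and 0.521 CPM in wild type, 2.07, 0.588, 0.887 and 0.645 in Dicer dMT/dMT and 0.797, 0.39 and 1.01 in Dicer SOM/SOM. The groups overlapped and the intervals were wide (-1.33 to 1.0 and -2.2 to 0.57). Its protein partners were measured as well. *Prkra*, which encodes the activator PACT, averaged 0.715 ± 0.31 CPM in heterozygous controls and 0.807 ± 0.286 in double mutants (SD, n = 4 each), and *Tarbp2*, which encodes the inhibitor and Dicer partner TRBP, averaged 8.4 ± 1.35 and 7.03 ± 0.898. Their log2 fold changes there were 0.19 and -0.26, with edgeR adjusted p of 0.795 and 0.339.

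*Zbp1*, the sensor of left-handed duplexes (chr2:173206612-173218923, minus strand) was at 2.24, 1.76, 2.35 and 0.711 CPM in double mutants, 1.38 and 1.41 in RNAi mutants, 0.557 in the piRNA mutant and 0.787, 0.999, 0.61 and 1.55 in heterozygous controls. Double mutants and controls overlapped. The log2 fold change was 0.86 (95% interval 0.01 to 1.7, edgeR adjusted p = 0.145), and it passed in 1 of 21 alternatives, without double mutant replicate 4 (1.12, adjusted p = 0.0324, in a range of 0.0324 to 0.677). In the single-end run *Zbp1* was at 0.177 to 0.749 CPM in wild type, 0.403 to 0.774 in Dicer dMT/dMT and 0.265 to 1.15 in Dicer SOM/SOM.

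PKR and ZBP1 are also made in macrophages, and some markers of these cells, above all *C1qb*, were higher in the mutants. The 10 macrophage markers summed to 19.5 to 26 CPM in heterozygous controls, 85.3 and 88.7 in RNAi mutants and 80.1 to 135 in double mutants, and to 21.3 to 29.2 in wild type, 63.9 to 74.4 in Dicer dMT/dMT and 133 to 193 in Dicer SOM/SOM. Most of each sum was *C1qb*, at 69.4 to 110 CPM in double mutants and 13.9 to 21.1 in controls. Of the 6 markers tested, 3 were called higher in RNAi mutants and the same number in double mutants (*Cd68*, *C1qb* and *Fcgr1*). Double mutant replicate 1 had 32 counts of *Adgre1*, 151.5 of *Lyz2*, 64 of *C1qc* and 9 of *Aif1*, against at most 5, 29, 5 and 3 in the other paired-end libraries. Without this library the *Eif2ak2* log2 fold change against controls was 0.78 (edgeR adjusted p = 0.192) and that of *Zbp1* 0.72 (adjusted p = 0.287). The library came from an older female. In the younger females *Eif2ak2* was at 4.33 and 3.05 CPM in double mutants and 1.25 and 1.16 in controls. In the older females it was at 5.28 and 1.85 CPM against 2.09 and 2.63. *Adgre1*, *C1qa*, *C1qc* and *Aif1* had at most 3 counts in all libraries of the RNAi mutants, the heterozygous controls and Dicer dMT/dMT. *Lyz2* had 0 and 1 counts in the RNAi mutants and 29, 3, 0 and 8 in the heterozygous controls. The genotypes with the higher sums are also those in which *Ddx58* fell. The part of these cells in any of these results was not tested.

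**Figure D3:**
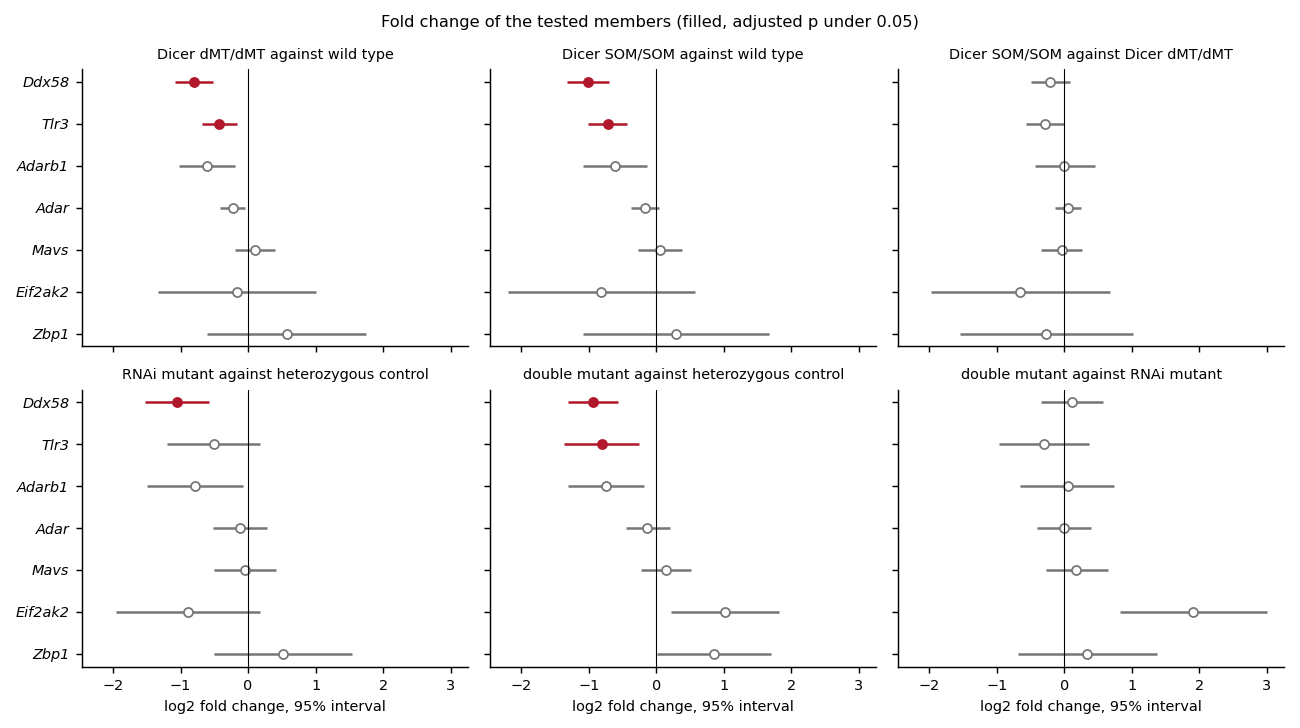
Log2 fold change of the 7 tested members with its 95% interval in each of the 6 comparisons, with filled points where the edgeR adjusted p was under 0.05. The filled points are *Ddx58* in the 4 comparisons with controls and *Tlr3* in 3 of them, all below 0, and *Eif2ak2* against RNAi mutants (1.91) is the farthest above 0 without passing.

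Of the 9 members, 7 passed the filter on low counts in both runs. In Dicer dMT/dMT 2 of them were called lower and 0 higher, where 7.3% and 8.06% of the 23151 genes tested were. In Dicer SOM/SOM 2 were lower and 0 higher, against 14.2% and 14.5% of all genes. In RNAi mutants 1 was lower and 0 higher, against 3.64% and 7.07% of 20989 genes, and in double mutants 2 were lower and 0 higher, against 8.83% and 12.3%. DESeq2 called *Eif2ak2* higher in double mutants against controls. At an unadjusted p under 0.05 *Eif2ak2* and *Zbp1* were higher there, where 6902 of all 20989 genes had such a p in either direction. The median log2 fold changes of the tested members were -0.23, -0.61, -0.51 and -0.13, beside 0.01, 0.02, -0.02 and 0.0 over all genes.

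Comparisons between mutants gave few calls. Dicer SOM/SOM against Dicer dMT/dMT gave 0 calls among members by edgeR and by DESeq2, where 3.32% of all genes were called lower and 4.03% higher, and 1 of the 7 members tested, *Tlr3*, had an unadjusted p under 0.05, as had 5390 of all 23151 genes. Double mutants against RNAi mutants gave 0 calls by edgeR and 1 by DESeq2, *Eif2ak2*, which was also the 1 member with an unadjusted p under 0.05 in edgeR, where edgeR called 0.00476% of all genes lower and 0.31% higher. An exact two-sided permutation test of the mean log2 CPM was run for each member in the 3 comparisons with at least 3 samples a group and 4 in 1 of them, 27 tests in all, in which the smallest p possible was 0.0286. *Ddx58*, *Tlr3* and *Adar* reached this p in Dicer dMT/dMT and *Ddx58*, *Tlr3* and *Adarb1* in double mutants, and the exact p adjusted over the 27 tests was 0.129 for each. An adjusted p under 0.05 would have needed most of the 27 tests to reach the smallest p possible. No member could therefore pass by its own values alone.

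Levels of different genes were compared per kilobase of exon. In wild type *Mavs* was highest at 10.2 ± 0.806 CPM per kb (SD, n = 3), then *Adar* at 7.37 ± 0.309, *Ddx58* at 6.81 ± 0.505, *Tlr3* at 4.90 ± 0.569 and *Adarb1* at 1.06 ± 0.233 CPM per kb. *Eif2ak2* (0.268 ± 0.178) and *Zbp1* (0.187 ± 0.14) followed, and *Dhx58* and *Ifih1* were at 0.0123 and 0.00813 CPM per kb. *Adar* and *Ddx58* overlapped, as did *Eif2ak2* with *Zbp1* and *Dhx58* with *Ifih1*, and the other 5 neighbouring pairs did not. In Dicer SOM/SOM *Adar* (6.49 ± 0.407) and *Ddx58* (3.3 ± 0.711) no longer overlapped, and *Ddx58* overlapped *Tlr3* (3.01 ± 0.412).

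**Figure D4:**
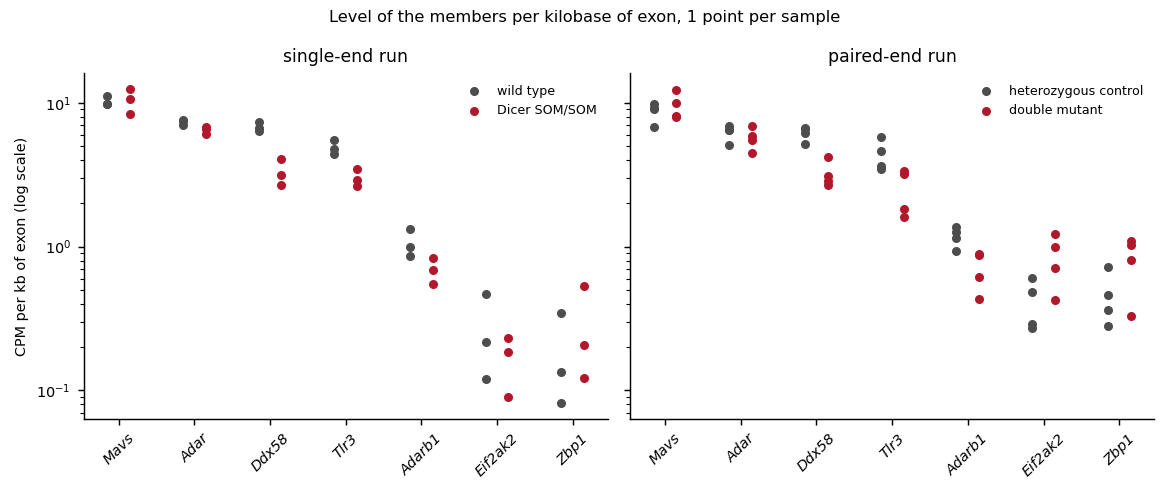
Level of the 7 tested members per kilobase of exon (CPM per kb, log axis), with 1 point per library, in wild type and Dicer SOM/SOM (left) and in heterozygous controls and double mutants (right). *Ddx58* and *Tlr3* sit lower in the mutants of both runs, *Mavs* keeps the top place, and *Eif2ak2* in double mutants (0.841 CPM per kb on average) stands beside *Adarb1* (0.703).

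In heterozygous controls the order was *Mavs* (8.72 ± 1.34 CPM per kb, n = 4), *Adar* (6.24 ± 0.774), *Ddx58* (6.14 ± 0.671) and *Tlr3* (4.39 ± 1.07), each overlapping the next. *Adarb1* (1.18 ± 0.195) stood apart from both neighbours, and *Zbp1* (0.456 ± 0.189) overlapped *Eif2ak2* (0.413 ± 0.163). In double mutants *Mavs* (9.61 ± 2.04) and *Adar* (5.71 ± 0.994) stood apart from the genes below them, *Ddx58* (3.22 ± 0.694) overlapped *Tlr3* (2.51 ± 0.916), and *Eif2ak2*, *Zbp1* and *Adarb1* overlapped between 0.703 and 0.841 CPM per kb on average. The place of *Zbp1* relative to *Eif2ak2* in heterozygous controls, and to *Adarb1* in double mutants, turned when the longest transcript was used for the length.

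The genes with the pattern most like *Ddx58* were *Wdr37*, *Accsl* and *S1pr3*, with Pearson r of log2 CPM of 0.962, 0.948 and 0.945 over the 11 single-end and 0.975, 0.950 and 0.951 over the 11 paired-end libraries, among 20006 genes. *Wdr37* averaged 202 CPM in wild type and 104 in Dicer SOM/SOM. For *Tlr3* they were *Ptprr*, *Phf23* and *Gm26725*, with r of 0.912, 0.897 and 0.874 in the single-end and 0.902, 0.875 and 0.885 in the paired-end run. These libraries fall into controls and mutants, and r describes that shared split.

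The genes around the sensors were read from lists of the pathway. Of 33 genes of sensor signalling, 30 were tested in each run. In Dicer dMT/dMT 1 was called higher and 5 lower. In Dicer SOM/SOM these were 3 and 7, while 14.5% of all genes were called higher and 14.2% lower there. In RNAi mutants 2 were higher and 2 lower, and in double mutants 4 and 6. Over the alternatives the RNAi mutants gave 0 to 1 higher and 0 to 4 lower, and the double mutants 1 to 4 and 1 to 6. The single-end ranges were 1 to 3 higher and 3 to 7 lower in Dicer dMT/dMT, and 0 to 5 and 6 to 7 in Dicer SOM/SOM. These counts, and those of the lists below, are read beside the shares of all genes called, which in Dicer dMT/dMT, RNAi mutants and double mutants were 8.06%, 7.07% and 12.3% higher and 7.3%, 3.64% and 8.83% lower. The median log2 fold changes were -0.03, 0.09, -0.16 and -0.03.

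*Ddx60*, a helicase that assists RIG-I, averaged 8.73 ± 2.32 CPM in wild type, 3.45 ± 0.797 in Dicer dMT/dMT and 1.62 ± 0.554 in Dicer SOM/SOM. The log2 fold changes were -1.34 (edgeR adjusted p = 0.00327) and -2.30 (adjusted p = 0.000147). It fell as well in RNAi mutants (-2.84, adjusted p = 0.00925) and double mutants (-1.74, adjusted p = 0.0122), from 9.72 ± 3.74 CPM in controls to 1.33 ± 0.654 and 2.91 ± 2.21. *Rnf135*, the ubiquitin ligase that activates RIG-I, fell from 4.58 ± 1.01 CPM to 2.64 ± 0.499 and 1.13 ± 0.28 in the same Dicer mutants (-0.80 and -1.98, adjusted p of 0.0298 and 0.000258), and of the 4 genes of the list called between these mutants it had the largest difference (Dicer SOM/SOM minus Dicer dMT/dMT -1.18, adjusted p = 0.0172).

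*Zc3hav1*, the antiviral protein ZAP, fell to 2.55 ± 0.717 and 1.55 ± 1.03 CPM from 5.6 ± 0.328 in wild type, and to 2.66 ± 1.24 from 8.6 ± 3.21 in double mutants (log2 fold change -1.68, edgeR adjusted p = 0.00187). *Traf3*, which links MAVS to the kinases of IRF3, fell from 20.9 ± 2.79 to 10.0 ± 1.87 CPM in Dicer dMT/dMT (-1.06, adjusted p = 0.00095) and from 19.0 ± 2.14 to 10.1 ± 0.0487 in RNAi mutants (-0.91, adjusted p = 0.0109). *Mlkl*, the executioner of necroptosis downstream of ZBP1, rose from 0.558 ± 0.139 to 1.43 ± 0.41 CPM in double mutants (1.35, adjusted p = 0.00931). It was also called higher in RNAi mutants, at 1.38 ± 0.306 CPM (1.29, edgeR adjusted p = 0.0499), and in Dicer SOM/SOM (2.09, adjusted p = 0.0316). In Dicer dMT/dMT it gave 1.67 without passing (adjusted p = 0.0877). *Ripk3*, the kinase between ZBP1 and MLKL, had at most 3 counts in 17 of the 22 libraries.

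**Figure D5:**
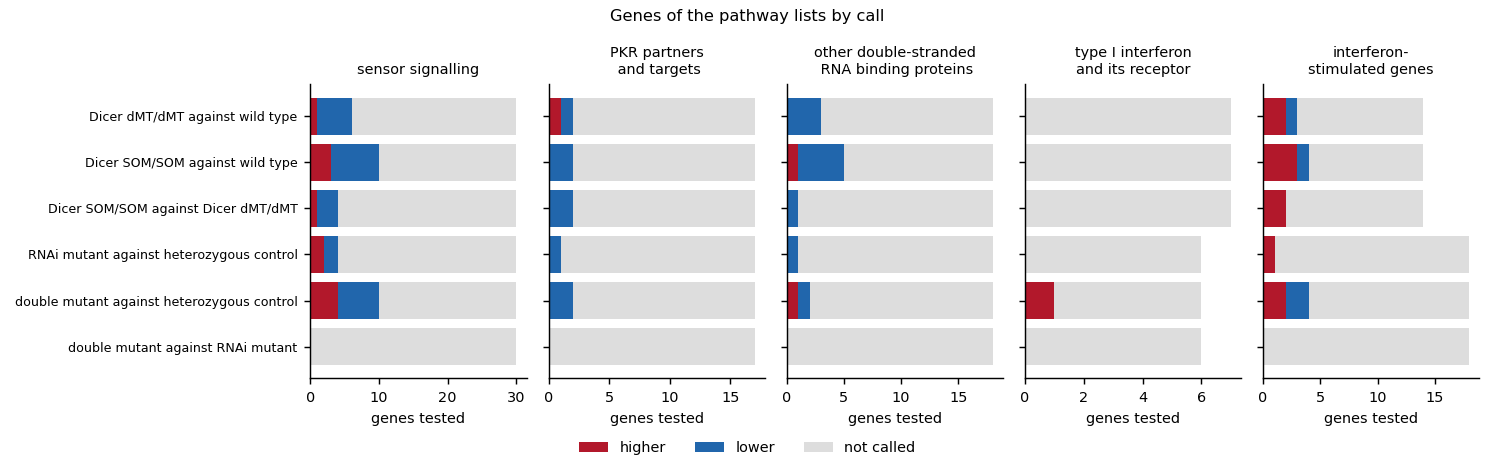
Number of genes tested in each of 5 pathway lists (horizontal axis) that were called higher (red), lower (blue) or not called (grey) in each of the 6 comparisons. For sensor signalling the lower against higher calls are 5 and 1 in Dicer dMT/dMT, 7 and 3 in Dicer SOM/SOM, 2 and 2 in RNAi mutants and 6 and 4 in double mutants, and most genes of every list were not called.

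Of the 17 partners and targets of PKR, all tested, 1 was called higher and 1 lower in Dicer dMT/dMT, 2 lower in Dicer SOM/SOM, 1 lower in RNAi mutants and 2 lower in double mutants. These are few genes, and the 2 of 17 in Dicer SOM/SOM are no larger a share than the 14.2% of all genes called lower there. *Ppp1r15b*, which returns eIF2 to its active form, fell in all 4, from 75.8 ± 7.66 CPM to 60.1 ± 2.79 and 59.1 ± 0.744, and from 86.9 ± 6.91 to 57.0 ± 2.28 and 56.1 ± 5.12. *Dnajc3*, which encodes an inhibitor of PKR, fell in Dicer SOM/SOM from 419 ± 35.5 to 224 ± 62.9 CPM (log2 fold change -0.89, edgeR adjusted p = 0.00261) and in double mutants from 530 ± 57 to 359 ± 18.4 CPM (-0.56, adjusted p = 0.0032). The RNA of *Atf4*, whose translation rises when eIF2 is phosphorylated, was higher in Dicer dMT/dMT (0.46, edgeR adjusted p = 0.014). In Dicer SOM/SOM it gave 0.01 against wild type (adjusted p = 0.963) and was called lower than in Dicer dMT/dMT (-0.45, adjusted p = 0.0284). RNAi mutants gave 0.58 against controls without passing (adjusted p = 0.0767).

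Among 19 other proteins that bind double-stranded RNA, 18 were tested. In Dicer dMT/dMT 3 were called lower. The calls in Dicer SOM/SOM were 4 lower and 1 higher. In RNAi mutants 1 was lower and 0 higher, and in double mutants 1 was lower and 1 higher (*Stau2*, log2 fold change 0.42, edgeR adjusted p = 0.0115). *Nkrf*, a repressor of NF-kB targets, fell from 74.7 ± 7.03 CPM to 46.6 ± 3.39 and 34.1 ± 1.13, and from 69.7 ± 7.17 to 35.6 ± 1.46 and 40.9 ± 4.53 in the paired-end mutants (log2 fold changes -0.68, -1.13, -0.97 and -0.77, edgeR adjusted p of 0.000687, 1.96e-05, 0.00151 and 0.000725). *Dgcr8*, of the microprocessor, fell in Dicer dMT/dMT and Dicer SOM/SOM by 0.42 and 0.43 on the log2 scale (edgeR adjusted p of 0.0225 and 0.019). It was not called in RNAi mutants (log2 fold change -0.38, adjusted p = 0.164) or in double mutants.

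The type I interferon genes and part of the interferon-stimulated genes, which the sensors would switch on, were near 0. *Ifna1*, *Ifna2*, *Ifna4* and *Ifne* had at most 3 counts in all 22 libraries, and *Ifnb1* had at most 3 in 21, with 8 counts in a wild type library. Of 28 interferon-stimulated genes, *Ifit2*, *Ifit3* and *Ifit3b* had at most 3 counts in all 22 and *Isg15* in 21. Others were not near 0, among them *Ifit1*, *Oas3* and *Cmpk2*, which had over 3 counts in all 22 and reached 15.2, 73.9 and 62.6 CPM. The highest level in any library was 0.0776 CPM for *Ifit2*, 0.0269 for *Ifit3* and 0.0864 for *Ifit3b*. A rise of these 3 genes above those levels was not seen in the mutants, and a smaller one could not be detected. *Ifnar1*, a chain of the interferon receptor, was higher in double mutants, at 68.8 ± 5.23 CPM against 48.8 ± 4.89 (log2 fold change 0.49, edgeR adjusted p = 0.0101).

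Of the interferon-stimulated genes, 14 were tested in the single-end run and 18 in the paired-end run. The calls were 2 higher and 1 lower in Dicer dMT/dMT, 3 and 1 with the SOM allele, 1 higher in RNAi mutants, and 2 and 2 in double mutants. *Oas3*, of the 2-5A synthetases that bind double-stranded RNA, rose from 12.0 ± 1.47 CPM in wild type to 20.2 ± 3.49 and 45.0 ± 6.93, and from 10.5 ± 1.11 in controls to 39.6 ± 1.82 in RNAi mutants and 66.5 ± 8.64 in double mutants (log2 fold changes 0.75, 1.9, 1.91 and 2.66, edgeR adjusted p of 0.00817, 1.58e-05, 4.6e-06 and 3.68e-08). *Cmpk2* moved the other way in the Dicer mutants of the single-end run, from 60.9 ± 1.45 CPM to 34.4 ± 2.12 and 27.9 ± 6.83 (-0.83 and -1.11, edgeR adjusted p of 0.00211 and 0.000278). It was not called in the paired-end run. The other genes called higher against wild type were *Ifi44* and *Oas2*, which reached at most 1.43 and 1.4 CPM in any library. *Ifi44* gave 1.6 in Dicer dMT/dMT (edgeR adjusted p = 0.0479) and 3.2 in Dicer SOM/SOM (adjusted p = 0.000913). *Oas2* gave 1.76 in Dicer SOM/SOM (adjusted p = 0.0251). The 2 genes called lower in double mutants were *Parp14* (-1.28, edgeR adjusted p = 0.0126) and *Ifitm3* (-0.5, adjusted p = 0.0398).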

How the data were processed

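The deposited table holds expected counts (fractional counts per gene) made by the authors, who mapped the reads of both runs to mm10/GRCm38 with STAR 2.5.3a and ran featureCounts with the GENCODE M15 models, ignoring strand and with reads of several places or genes divided between them. Repeats shared with other genes can therefore add fractions of reads to a gene. Here counts were rounded, genes were filtered by expression (count threshold 10, total threshold 15), and each run was fitted apart with all its replicated groups by the quasi-likelihood test of edgeR 4.0.16 (R 4.3.3, TMM factors). P-values were adjusted by Benjamini-Hochberg over all genes tested, and an adjusted p under 0.05 is a call. DESeq2 1.42.0 was an alternative, as were other size factors, filters and thresholds, fits of only the groups compared, a replicate block, age terms, younger animals only and each sample left out in turn. Older animals only, the genotype by age interaction and a term for libraries over 1000 CPM of *Gm42418* were added after the values were seen. The fit was tested on simulated data. Totals of 6468380 to 90713013 counts set the counting precision, and a level of 3 counts served as the floor. Intervals and floors cover counting or replicate error only.

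Groups and ages came from the sample labels, and replicates were numbered within each group in the order in which the samples are listed, which for some paired-end libraries is not the number in their titles. Replicate numbers shared between groups did not pair samples (correlations of deviations from the group means of -0.0868 to 0.203). All 9 members are named. From each pathway list, at most the 4 called genes with the largest log2 fold change and a mean of at least 1 CPM are named for a comparison, and the 3 most similar genes were ranked by the smaller r of both runs. *Ifi44* and *Oas2*, which fell short of that mean in the single-end run, are named as well. The members and lists were chosen with earlier results of these data known. Exon overlaps and gene positions come from the gene models in the deposited table, longest transcripts and close copies from GENCODE M21, and promoter windows from RefSeq (GRCm38.p6). A deposited list of retrotransposon names was not used here, and protein sequences were not analysed here. Not every called gene of the lists is reported here.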

Additional observations from a re-analysis of the deposited data

Results flagged for a closer look

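Of 25 sets of 4 samples, each holding the values of 1 member in 1 group, 1 had a sample far from the others. *Dhx58* was at 0.27 CPM in Dicer dMT/dMT replicate 4 and at 0 to 0.0414 CPM in the other 3 libraries of that genotype. The gap to the nearest library was 0.846 of the range, against a critical value of 0.829. Chance flags about 5 percent of such sets. The value rests on 23.25 counts, and *Dhx58* was not tested between groups.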

How the results depend on the processing

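The count of members called in a comparison was recomputed under each alternative, and the fold changes of *Ddx58* and *Tlr3* against controls kept their sign in every alternative. For Dicer dMT/dMT (2 members) the count was 1 with library totals only, 1 with no filter, 0 with a minimum of 1 log2 unit and 1 to 2 without a replicate. For Dicer SOM/SOM (2) it was 1 with a minimum of 1 log2 unit. For RNAi mutants (1) it was 0 with younger animals only and 0 to 1 without a replicate, where the lone RNAi mutant is assumed to vary like the other groups. For double mutants (2) it was 4 with DESeq2, 4 with no filter, 4 at an adjusted p under 0.1, 0 with a minimum of 1 log2 unit, 1 with younger animals only and 1 to 3 without a replicate. The member called in double mutants with younger animals only was neither *Ddx58* nor *Tlr3*. For double mutants against RNAi mutants (0) the count was 1 with DESeq2 and 1 with no filter. Of all counts of members, 95 stayed within 1.5 times the reported count and 20 did not. The cause was not tested.

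The replicate block, in which samples share only a number, gave 2 members in Dicer dMT/dMT, where *Adarb1* (adjusted p = 0.0275) took the place of *Tlr3* (0.0853), 3 in Dicer SOM/SOM with *Adarb1* (0.025), 1 in RNAi mutants and 2 in double mutants, and 0 between mutants. *Ifih1* and *Dhx58* had too few counts to test, and only 2 RNAi mutants and 1 piRNA mutant were sequenced.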
